A study of Rattus norvegicus with 9 samples.

Results

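The 9 arrays of this study were scanned on 2 days, and the 4 arrays of the earlier day were compared with the 5 of the later day. The scan day was read from the header of each scanner file, so all 9 of 9 arrays belong to the comparison. The earlier day held cardiac arrest (CA) replicates 3, 4 and 5 and sham replicate 1. The later day held CA replicates 1 and 2 and sham replicates 2, 3 and 4. Each array measured total RNA of 1 male Wistar rat, from tissue labelled as cerebral cortices, after Cy3 labelling of 0.2 µg of RNA. CA rats were anaesthetised with pentobarbital at 30 mg/kg, per the labels' protocols. Ventricular fibrillation was induced by a 10 s current of 6 V at 50 Hz, resuscitation followed 8 min later, and tissue dates from 2 h after spontaneous circulation had returned. Sham-operated rats were the controls, and the labels give no age, genotype or reason for the 2 scan days. The 5 later arrays lay on 1 slide, while 3 earlier arrays (CA 3, CA 4 and sham 1) shared another and CA 5 lay on its own. Scan day, slide and whatever else was done separately for these 2 sets of rats cannot be told apart.

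A 1-colour array reports how much labelled RNA binds each probe, so its profile follows the mixture of cells in the tissue. Cerebral cortex is built of neurons and glia, and its RNA is rich in transcripts for ion channels, synapses and the axonal skeleton. Striated muscle, in heart and limb, is known for contractile proteins and for a dense set of mitochondrial transcripts, which all cells also need at lower levels. Whether the labelled tissue fits its markers could be looked at only in small part, because the files give no gene names. Probe sequences were therefore placed through RefSeq windows around gene starts, which named 150 catalogue probes in 149 genes. Of 630 genes in 37 lists of cell type markers and pathways, 11 had a named probe. The lists for heart muscle, skeletal muscle, neurons, astrocytes, oligodendrocytes, microglia and endothelium had none by this matching. Their markers may be among the unnamed probes, whose sequences were not compared with transcripts or proteins, so they were not analysed by name. The part of tissue makeup in the day difference was not tested.

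The probes that carried the difference are shown by sequence, since most of them were given no gene name by this matching. The first 5 are named probes from 5′ to 3′, with capitals for the bases found in a RefSeq window of the GRCr8 build and lower case for bases beyond its edge. They were chosen as the most shifted named gene in each direction and as examples of smaller shifts.
Tnni3k: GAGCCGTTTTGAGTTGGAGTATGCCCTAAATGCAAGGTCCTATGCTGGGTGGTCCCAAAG
Ifitm7: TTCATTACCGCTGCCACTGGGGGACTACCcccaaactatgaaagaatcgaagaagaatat
Me3: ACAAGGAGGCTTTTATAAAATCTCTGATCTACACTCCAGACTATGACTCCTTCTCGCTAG
Cacna1c: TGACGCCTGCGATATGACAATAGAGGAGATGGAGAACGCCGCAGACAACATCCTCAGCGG
Pcp4: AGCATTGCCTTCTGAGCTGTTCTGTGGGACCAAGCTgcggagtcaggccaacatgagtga
The Tnni3k probe (A_64_P052840) lies at chr2:246441066-246441125 on the minus strand, inside the annotated gene and 44015 bases before its end. The Ifitm7 probe (A_44_P166581) matched 29 bases at chr11:46606835-46606863 on the plus strand, 21 bases past the gene's start. The Me3 probe (A_44_P426529) lies at chr1:153144308-153144367 on the plus strand, 3659 bases before the gene's end. The Cacna1c probe (A_64_P057746) lies at chr4:153438155-153438214 on the minus strand, 6986 bases before the gene's end. The Pcp4 probe (A_64_P149562) matched 36 bases at chr11:49270200-49270235 on the plus strand, 14 bases past an annotated alternative start. The tables used give no exons, so exon, intron and UTR are not stated for these positions.

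The arrays themselves differed between the days. The share of probes well above background, Agilent's mark for a signal clear of its local background, was 61.8%, 49.8% and 55.2% on CA replicates 3 to 5 and 58.6% on sham replicate 1, all of the earlier day. On the later day it was 73.4% and 71.3% on CA replicates 1 and 2, and 72.7%, 70.7% and 70.3% on sham replicates 2 to 4. The days did not overlap, with means of 56.3% ± 5.16 (SD, n = 4) and 71.7% ± 1.34 (SD, n = 5). An exact 2-sided permutation test over all splits into 4 and 5 arrays gave p = 0.00794, the smallest it allows, and 0.0139 after Benjamini-Hochberg adjustment over 14 array measures. Signal on the earlier arrays was packed into fewer probes: the 1000 brightest held 71.4% to 80.2% of the summed signal, against 63.3% to 66.5% on the later ones (adjusted exact permutation p = 0.0139). The 75th percentile of the unscaled log2 signals was 6.78 to 7.76 on the earlier and 8.21 to 8.51 on the later day, again without overlap. The brightest E1A spike-in control, RNA of known sequence added during labelling, was 13.08 to 13.51 on the earlier and 13.00 to 13.32 on the later day, and these ranges overlapped. CA replicate 3 stood apart in its negative controls, whose mean signal was 81.5 there and 31.6 to 45.5 elsewhere, so results are also given without it where it alters them.

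**Figure D1:**
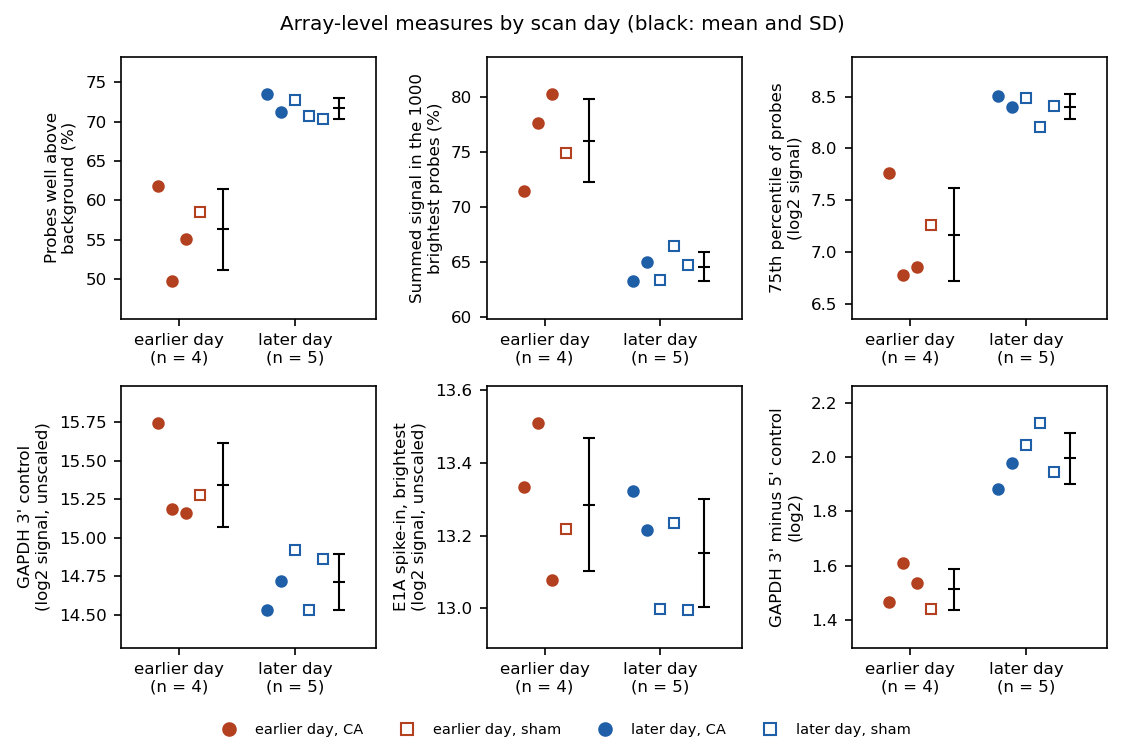
Array-level measures of the 4 earlier and 5 later arrays, 1 point per array, circles for CA and squares for sham, with the mean and SD of each day in black; axes are in percent or log2 signal and do not start at 0. Detection, the share of signal in the brightest probes, the 75th percentile and both GAPDH measures separate the days, while the E1A spike-in overlaps.

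To ask which probes differed between the days, each log2 signal was taken minus its array's 75th percentile, and limma was fitted with scan day and group over 28976 probes well above background on at least 4 arrays. At an adjusted p under 0.05, the earlier day had higher signal for 7757 probes (26.8% of those tested) and lower signal for 7581 (26.2%), together 52.9%. At an unadjusted p under 0.05 there were 17008. Of the called probes, 7051 higher and 6361 lower ones had arrays that did not overlap between the days. Over all tested probes, called or not, 49% had no overlap between the days, 26% with the earlier and 23% with the later day higher. Large differences were common: 2495 probes were called at 4-fold or more higher and 3062 lower, 1135 (3.92%) and 1604 (5.54%) at 8-fold or more, and 102 and 86 at 128-fold or more. The counts at 8-fold or more moved with the treatment of dim signals: they were 407 and 400 with normexp background correction, 978 and 872 with signals held at the detection limit, and 690 and 209 over probes well above background on every array. The balance of directions moved with the background correction, the filter and the scaling. With normexp 14451 probes were called higher and 5912 lower, and at the detection limit 10848 and 6081. With the 75th percentile of probes detected on all arrays, 5842 were higher and 9754 lower, and with the median of those probes 6375 and 9344. Over the 16898 probes well above background on every array, 7149 were higher and 3455 lower. With no scaling, 2283 (7.88%) were higher and 16682 (57.6%) lower, and the median over probes was -1.24, against -0.01 in the scaled values.

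Catalogue and custom probes both took part. Of 23216 tested catalogue probes, the earlier day was higher for 6565 and lower for 6126, and of 5760 tested custom probes, 1192 were higher and 1455 lower. Differences of 8-fold or more were called for 1005 higher and 1428 lower catalogue probes, which is 4.33% and 6.15% of them, and for 130 and 176 custom probes, 2.26% and 3.06%. Detection differed in a lopsided way. Only 169 tested probes were well above background on all 4 earlier and no later array, and all of these were called higher without overlap. A larger set of 2963 was well above background on all 5 later and no earlier array, of which 1595 were called lower without overlap. A probe at background on an earlier array has a bound rather than a level there, and after scaling the dimmest detected signal lay at -3.98 to -2.53 on the earlier and at -5.51 to -5.10 on the later arrays.

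The most shifted probes of all were not named by the RefSeq windows. Their sequences were not compared with transcripts or proteins and are given in full. These 3 had the largest increase and the next 3 the largest decrease on the earlier day among called probes without overlap, with dim signals held at each array's detection limit, the 5th percentile of its signals well above background. They were picked after their values were seen.
A_44_P284753: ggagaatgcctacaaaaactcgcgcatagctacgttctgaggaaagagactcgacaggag
A_44_P397163: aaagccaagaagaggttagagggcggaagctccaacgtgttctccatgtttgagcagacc
A_44_P188441: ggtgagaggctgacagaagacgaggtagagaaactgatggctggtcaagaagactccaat
A_64_P019966: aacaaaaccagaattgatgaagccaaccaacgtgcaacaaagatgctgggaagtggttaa
A_44_P371172: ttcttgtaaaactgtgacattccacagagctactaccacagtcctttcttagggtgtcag
A_64_P033800: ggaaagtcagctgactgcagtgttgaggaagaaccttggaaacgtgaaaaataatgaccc
A_44_P284753 had scaled log2 signals of 8.14, 8.76 and 8.48 on CA 3 to CA 5 and 8.13 on sham 1. On the later day it was not well above background on any array, at -6.14 to -5.29, so it was at least 6183-fold brighter on the earlier day (limma adjusted p = 3.2e-08). Such a bound sets the bright day's mean against, per array, the higher of the detection limit and the probe's own value. Against each array's dimmest detected signal in place of that limit, the same fold was 12745. At the detection limit A_44_P397163 was at least 4693-fold and A_44_P188441 at least 3698-fold brighter on the earlier day. A_64_P019966 had 5.86 and 6.20 on CA 1 and CA 2 and 6.74 to 7.18 on sham 2 to sham 4, all of the later day. On the earlier day it was -0.83 on CA 3 and -5.14 to -3.35 on the other 3 arrays, and it was well above background on 2 of the 4. A_44_P371172 was well above background on no earlier array and was at least 419-fold brighter on the later day, where its scaled mean was 6.15 ± 0.52 (SD, n = 5). A_64_P033800 had 5.58 to 6.36 on the later arrays, against -1.38 on CA 3 and -4.14 to -3.61 on the other earlier ones, and it was well above background on 1 of the 4.

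**Figure D2:**
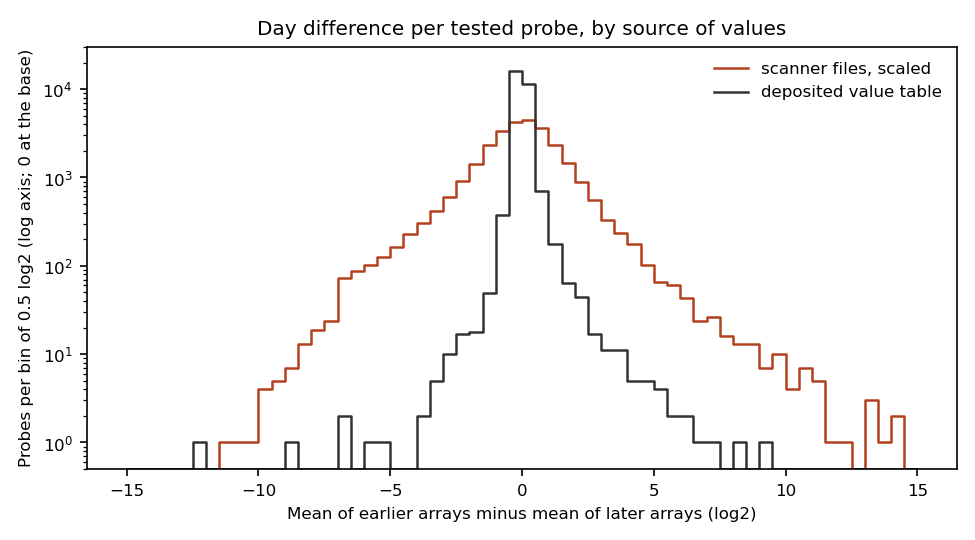
Number of tested probes by the mean of the 4 earlier arrays minus the mean of the 5 later arrays, in bins of 0.5 log2 on a log count axis, for the scaled scanner values and for the deposited value table. The scanner values spread beyond 10 log2 on both sides, while nearly all probes of the deposited table lie near 0.

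Because both days held CA and sham arrays, the day difference could be measured in each group on separate arrays. Within CA (3 earlier against 2 later arrays), the earlier arrays were called higher for 6401 probes (22.1%) and lower for 6066 (20.9%) in limma, with the spread taken from all 9 arrays. Fitted on the 5 CA arrays alone, the counts were 4477 and 4002. Within sham (1 against 3 arrays), it called 5025 higher and 4497 lower, or 17.3% and 15.5%, with sham replicate 1 assumed to vary like the other arrays. Across the 28973 probes with both values, the 2 differences had a Pearson correlation of 0.900, a description over probes that share arrays and are not independent. Over all of these probes, called or not, 23978 (82.8%) had the same sign in CA and in sham. An interaction of day and group was called for 6 probes (0.0207%), and 1817 had an unadjusted p under 0.05. The count was 29 without CA replicate 3, 70 over probes well above background on every array and 108 with normexp. Each of the 6 turns on sham replicate 1, the single sham array of its day. One was the probe of Oasl2, a member of the interferon-induced oligoadenylate synthetase-like family, named here after its values were seen. It had 2.95 on sham 1, against -2.09 to -1.25 on the other earlier arrays and -2.65 to -1.87 on the later ones.

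**Figure D3:**
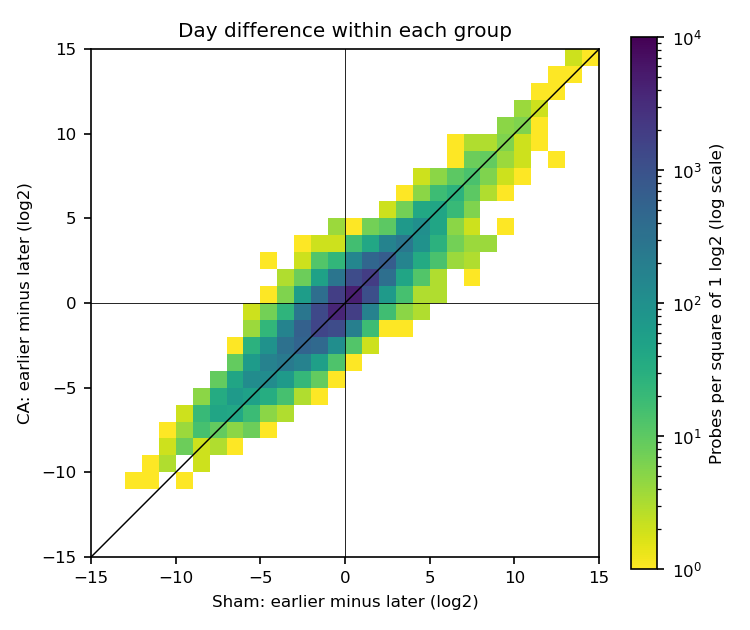
Earlier minus later day difference of each probe in sham (horizontal) against the same in CA (vertical), both in log2, as a density of probes per square of 1 log2, with the line of equality. Probes lie along the line, and 23978 of 28973 share their sign in both groups.

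Among genes higher on the earlier day, Tnni3k came first. It encodes a kinase that binds cardiac troponin I and is known for its expression in heart muscle. Its probe had scaled log2 signals of 3.65, 3.85 and 3.99 on CA 3 to CA 5 and 3.56 on sham 1. On the later day it had -4.16 and -4.22 on CA 1 and CA 2 and -4.32, -3.96 and -3.51 on sham 2 to sham 4, dim but well above background on all 5. Every earlier array was bright and every later one dim, with no overlap. The fitted difference was 7.82 ± 0.23 (SE), or 225-fold (limma adjusted p = 1.29e-07), and it was 8.02 within CA and 7.49 within sham. With normexp background correction, which lifts dim signals by an offset, it was 5.63.

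Ifitm7 belongs to the interferon-induced transmembrane proteins, a family of close copies, so its probe may also bind relatives. It had 1.32, 1.89 and 2.05 on CA 3 to CA 5 and 2.50 on sham 1, against -2.70 to -2.08 on the later arrays. The difference was 4.41 ± 0.27 (SE; limma adjusted p = 4.19e-06), and the days did not overlap. Clybl, a mitochondrial lyase of citramalyl-CoA, had 1.71, 2.24 and 2.14 on CA 3 to CA 5 and 1.50 on sham 1, against -1.21 to -0.79 on the later day. Its difference was 2.85 ± 0.22 (SE; limma adjusted p = 1.28e-05). Me3, the mitochondrial malic enzyme that makes NADPH, had 1.75 to 2.12 on the earlier and -0.07 to 0.43 on the later arrays. Polr2f, a subunit shared by nuclear RNA polymerases, had 0.89 to 1.59 on the earlier and -0.67 to -0.47 on the later arrays. Both rose without overlap, by 1.59 and 1.85 in scaled values, but neither passed in unscaled values, at 0.35 and 0.61 (limma adjusted p = 0.28 and 0.0595).

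The probe placed at Hrh3, the presynaptic histamine receptor of neurons, was also higher on the earlier day. It lies across an annotated start, and whether it also binds another transcript was not tested. It had 5.12, 5.91 and 5.78 on CA 3 to CA 5 and 5.33 on sham 1, against 3.33 to 3.94 on the later arrays. The difference was 1.88 ± 0.24 (SE; limma adjusted p = 0.000249) in scaled values and 0.64 (adjusted p = 0.0196) in unscaled ones. Tcta was dim throughout but separated cleanly, with -1.84 to -1.53 on the earlier and -4.17 to -3.99 on the later arrays, a difference of 2.37 ± 0.15 (SE; limma adjusted p = 5.21e-06). It was 1.13 (adjusted p = 0.00668) in unscaled values and 1.35 with normexp.

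Oxidative phosphorylation, the respiratory chain and ATP synthase of mitochondria, was the one list with more than 1 named member. Of its 78 genes, 5 had a named and tested probe, of which 4 were higher on the earlier day and 0 lower. The median difference was 1.54 over the 5, against -0.01 over all tested probes and 0.32 over those well above background on every array. Of the 5, 4 belonged to that narrower set and were called higher there, as were 7149 of its 16898 probes. Higher probes made up 26.8% of all those tested. The brightest E1A spike-in control was itself higher by 1.37 on the earlier day in scaled values and by 0.13 in unscaled ones. How far this offset enters the scaled differences was not tested. In unscaled values 2 of the 5 were called higher and 1, Atp5f1d, was called lower, while Cox6b1 turned to -0.06 and Ndufa13 was 0.30 without passing. Complex I was represented by Ndufa2 and Ndufa13. Ndufa2 had 2.57, 3.56 and 3.19 on CA 3 to CA 5 and 2.38 on sham 1, against 0.44 to 0.72 on the later day, a difference of 2.26 ± 0.27 (SE; limma adjusted p = 0.000158). Ndufa13 had 3.23 to 4.02 on the earlier and 1.91 to 2.10 on the later arrays, a difference of 1.54 ± 0.22 (SE; limma adjusted p = 0.0004). For both, the lowest earlier array stood above the highest later one. Cytochrome c oxidase was represented by Cox7a2 and Cox6b1. Cox7a2, the subunit form made in most tissues beside a muscle form, had 3.14 to 4.10 on the earlier and 1.36 to 1.72 on the later arrays, a difference of 2.04 ± 0.25 (SE; limma adjusted p = 0.000166). It was the only member of 28 listed pairs of muscle and brain isoforms with a named probe, so no pair could be compared. Cox6b1 had 3.87 to 4.69 and 2.87 to 3.31, a difference of 1.17 ± 0.23 (SE; limma adjusted p = 0.0027). The probe of Atp5f1d, the delta subunit of ATP synthase, did not pass, with -0.68 on CA 3, -5.77 to -3.95 on the other earlier arrays and -2.92 to -2.20 on the later ones. It lies upstream of an annotated start, and without CA replicate 3 its fitted difference was -2.50 (limma adjusted p = 0.000566). It was -2.90 (adjusted p = 0.0375) in unscaled values, -2.04 (adjusted p = 0.00401) with array weights and 0.39 (adjusted p = 0.173) with normexp background correction.

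Single members stood for 3 further lists. Cacna1c, the pore subunit of the L-type calcium channel of heart, smooth muscle and neurons, had 1.67 to 1.83 on the earlier and 0.14 to 0.56 on the later arrays. Its difference was 1.31 ± 0.16 (SE; limma adjusted p = 0.00015) in scaled values and 0.07 (adjusted p = 0.82) in unscaled ones. Hbb, the beta globin of red cells, was the only red cell marker with a named probe. It had 2.96, 2.66 and 2.06 on CA 3 to CA 5 and 0.11 on sham 1. On the later day it had 1.97 on CA 1, -0.37 on CA 2 and -0.88 to -0.74 on the sham arrays. Here the days overlapped and the CA arrays lay above the sham arrays of their own day. Its day difference of 1.43 ± 0.48 (SE; limma adjusted p = 0.0333) passed narrowly. It was 0.19 (adjusted p = 0.777) in unscaled values, and it did not pass with quantile scaling or with scaling on probes detected on all arrays, at 1.11 to 1.29 (adjusted p = 0.071 to 0.11). It no longer passed without CA 2, CA 4 or any 1 of the 4 sham arrays, where it ranged from 0.75 to 1.76 with adjusted p of 0.0507 to 0.067. Globin genes are close copies, so the probe may also bind a relative. Adra1b, an adrenergic receptor, overlapped between the days at 0.48 ± 0.73 (SE; limma adjusted p = 0.612) and was -0.13 without CA replicate 3. It was called higher with signals held at the detection limit (adjusted p = 0.0319) and, at 0.97 (adjusted p = 0.000523), with normexp.

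The genes lower on the earlier day were led by Pcp4, a small calmodulin-binding protein of neurons. It had 3.49 and 1.69 on CA 1 and CA 2 and 2.37, 2.89 and 1.74 on sham 2 to sham 4, all of the later day. On the earlier day it had -1.48 on CA 3, where it was well above background, and -4.99, -5.59 and -5.74 on CA 4, CA 5 and sham 1, where it was not. The days did not overlap and the fitted difference was -7.17 ± 0.90 (SE; limma adjusted p = 0.000212). Held at each array's detection limit, the difference was -5.12, and 3 of the 4 earlier values are bounds.

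Kcnj9, a subunit of the G protein-gated potassium channels of neurons, was the only member of the neuronal channel list with a named probe, out of 22 genes. It had 0.30 to 0.69 on the later arrays. On the earlier day it had -1.90 on CA 3, -2.99 on CA 4, -3.63 on CA 5 and -2.48 on sham 1, with 1 of the 4 well above background. The difference was -3.13 ± 0.34 (SE; limma adjusted p = 8.62e-05), with -3.14 within CA and -3.11 within sham. Since 3 of the 4 earlier values are bounds, its size depends on how dim signals are treated, at -2.84 with signals held at the detection limit and -1.57 with normexp. Coro2b, an actin-binding coronin of the brain, was detected on all arrays, with -0.14, 0.35 and 0.36 on CA 3 to CA 5 and -0.09 on sham 1 against 2.44 to 3.20 on the later day. Its difference was -2.53 ± 0.24 (SE; limma adjusted p = 4.06e-05). Schip1, a partner of schwannomin found at the axon initial segment, had -3.85 to -2.94 on the earlier arrays, 1 of them well above background, and -1.68 to -0.26 on the later ones. Opposite-strand RefSeq entries also overlap the probes of Kcnj9, Coro2b, Clybl, Myl6bl1 and Extl1.

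Camta2, a calmodulin-binding transcription activator, had -2.23 to -1.29 on the earlier and -0.16 to 0.85 on the later arrays. Scai, a nuclear cofactor that restrains transcription by the actin-sensing MRTF proteins, had -3.68 to -2.13 and -1.01 to -0.21. Their differences were -1.88 ± 0.25 and -2.07 ± 0.33 (SE), with limma adjusted p of 0.000285 and 0.000852, and each was well above background on 3 earlier arrays. Or10g9b, annotated as an olfactory receptor, was detected on all 9 arrays, with 0.08 to 0.65 on the earlier and 2.08 to 3.00 on the later ones. Myl6bl1 was well above background on no earlier and on all 5 later arrays, at -1.14 to -0.72, and was at least 3.18-fold brighter on the later day with signals held at the detection limit (limma adjusted p = 0.00341, and 0.105 on the CA arrays alone). Ccdc28b had -2.32 to -1.36 and -0.57 to -0.38. Extl1, an exostosin-like glycosyltransferase, had -3.45 to -1.41 and -1.07 to -0.61, and its call was lost without CA 1, CA 2 or CA 5 (adjusted p = 0.0587 to 0.0907). All 10 genes were lower on every earlier array than on any later one, which is how they were selected. With normexp background correction, all 10 were still called lower but by less, from -0.33 for Extl1 and -0.59 for Schip1 to -2.38 for Coro2b and -3.75 for Pcp4, with -0.63 for Myl6bl1 and -0.74 for Scai.

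**Figure D4:**
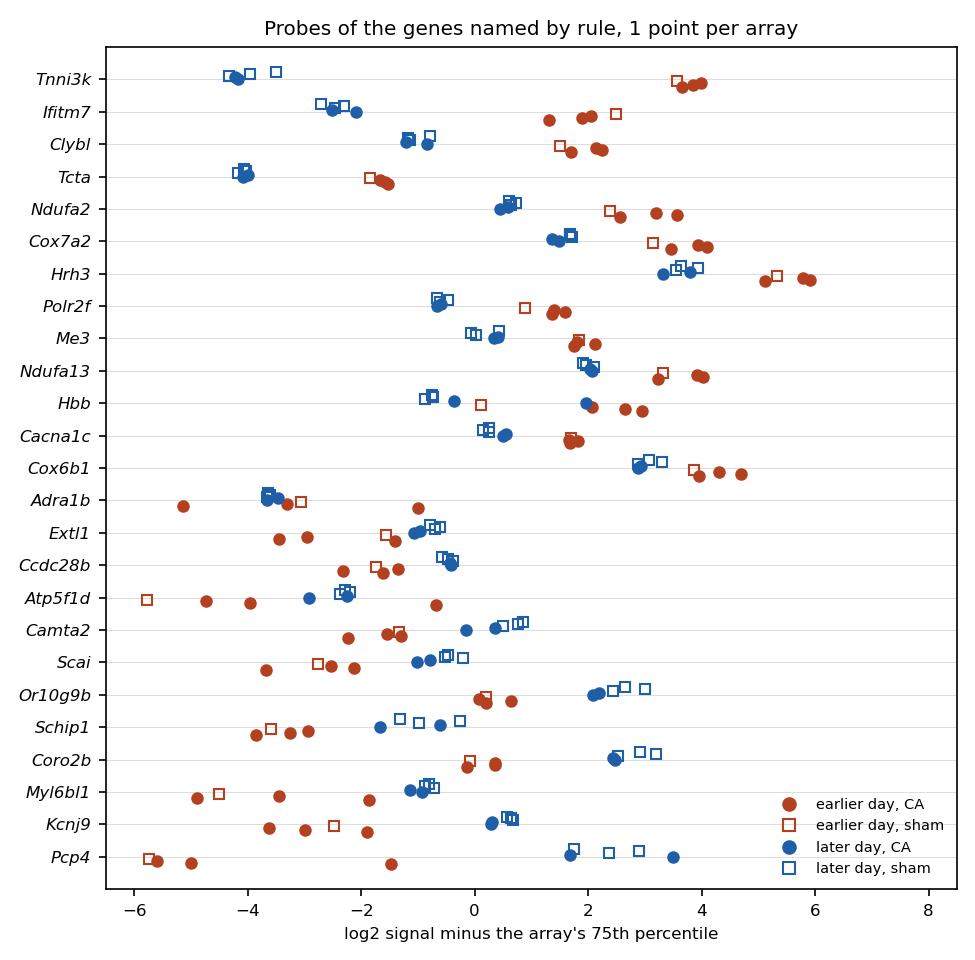
Scaled log2 signal of the 25 probes named by rule on each of the 9 arrays, ordered by the fitted day difference; circles are CA, squares sham, and the colour gives the scan day. Earlier and later arrays separate for all but Hbb, Adra1b and Atp5f1d, and levels of different probes are not comparable.

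Over all named probes, 110 of 150 passed the filter, 34 were higher on the earlier day and 23 lower, and their median difference was 0.14. These counts stand beside shares of 26.8% and 26.2% over all tested probes. By position, 32 tested probes began at or near an annotated start, with 13 higher and 7 lower. Another 31 lay within 2000 bases of the gene's end, with 8 higher and 10 lower, and 47 lay elsewhere inside, with 13 higher and 6 lower. Medians were 0.16, -0.37 and 0.40 in the same order. Olfactory receptor genes, normally silent outside the nose, gave 18 named probes, of which 12 were well above background on no array, 4 were tested and 2 were called.

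Agilent's control probes for 2 glycolytic enzymes measure the same rat RNA near both ends of the transcript. The 3′ probe of GAPDH, glyceraldehyde-3-phosphate dehydrogenase, had unscaled log2 signals of 15.74, 15.18 and 15.16 on CA 3 to CA 5 and 15.28 on sham 1. On the later arrays it had 14.53 to 14.92. The earlier day was higher by 0.63 unscaled and by 1.86 scaled, without overlap, at an adjusted exact permutation p of 0.0139 for each. The 5′ probe was higher by 1.11 unscaled and 2.35 scaled. The 3′ minus the 5′ signal, a within-array contrast that scaling cannot alter, was 1.47, 1.61 and 1.54 on CA 3 to CA 5 and 1.44 on sham 1. It was 1.88 to 2.12 on the later arrays, again without overlap (adjusted exact permutation p = 0.0139). For PGK1, phosphoglycerate kinase, the same contrast overlapped, at 1.27 to 1.48 and 0.95 to 1.44 (adjusted exact permutation p = 0.141). The 3′ probe of PGK1 was higher by 1.43 on the earlier day in scaled values, without overlap, but by only 0.19 in unscaled values, where the days overlapped (adjusted exact permutation p = 0.484).

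Replicates were tighter on the later day. The median SD of a tested probe was 0.24 over the 5 later arrays and 0.49 over the 4 earlier ones, or 0.35 without CA replicate 3. Spearman correlations across probes, which are not independent, were 0.962 to 0.984 within the later day and 0.601 to 0.720 between days. Of the 100 brightest probes of an array, 91 to 95 were shared by pairs of later arrays, 78 to 90 by pairs of earlier arrays and 63 to 75 by pairs across days. A core of 59 probes was among the 100 brightest on all 9 arrays.

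The authors' deposited value table, on a log2 scale, holds the same arrays almost without the day difference. In the deposited table limma called 6 probes higher and 3 lower on the earlier day (0.0311% of 28976), with 157 at an unadjusted p under 0.05. Of these 9 probes, 8 had a mean under 1 log2 on 1 of the days in the deposited table. In the scanner values 3 of them were called, 1 in the same direction and 2 in the opposite one, higher on the earlier day there and lower in the deposited table. Differences of day means had an SD over probes of 1.87 in the scaled scanner values and 0.36 in the deposited table. A mean difference of 2-fold or more was found for 45.6% of tested probes in the scanner values and for 1.56% in the deposited table. Tnni3k, which was 225-fold apart in the scanner values, had 9.69 to 10.49 on the earlier and 9.98 to 10.29 on the later arrays in the deposited table. Pcp4 had 10.01 to 10.25 on the earlier and 8.03 to 11.33 on the later arrays there. Kcnj9 had 7.76 to 7.98 and 7.82 to 8.37, and Clybl 8.01 to 8.70 and 8.48 to 8.76. All 4 probes overlapped between days in the deposited table and none did in the scanner values, where lack of overlap was part of their selection.

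The spread within days differed between the 2 sources as well. The median SD of a tested probe was 0.27 over the earlier and 0.32 over the later arrays in the deposited table, the opposite order to the scanner values. For Pcp4 the SD over the later arrays was 0.77 in the scanner values and 1.41 in the deposited table, while over the earlier arrays it was 2.01 and 0.11. Between days, Spearman correlations of arrays across probes were 0.923 to 0.975 in the deposited table. Each array's own values in the 2 sources had Spearman correlations of 0.822 to 0.949 across probes. The steps behind the deposited table are not given in the sources used here.

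**Figure D5:**
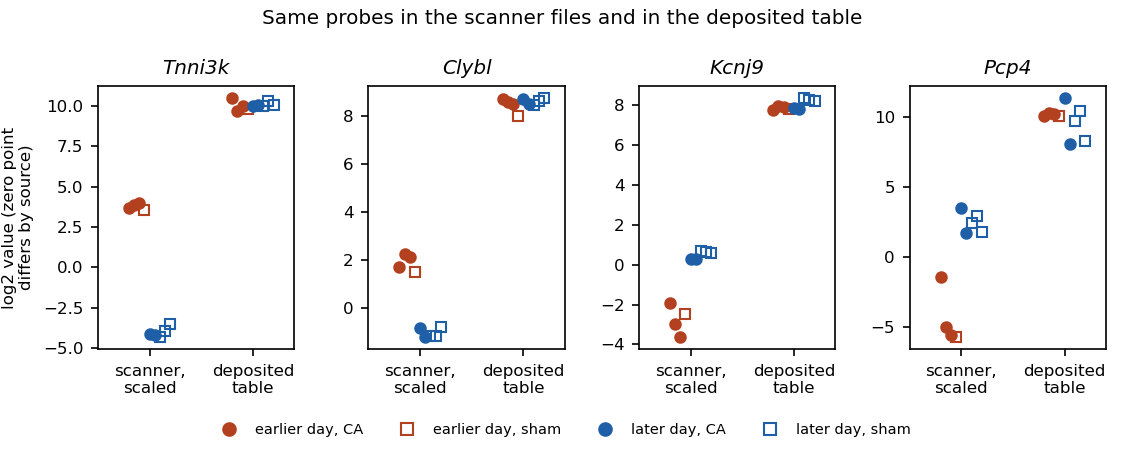
Log2 values of the Tnni3k, Clybl, Kcnj9 and Pcp4 probes on each array, in the scaled scanner values (left in each panel) and in the deposited table (right); circles are CA, squares sham, and the colour gives the scan day. The days lie apart in the scanner values, by which the probes were selected, and overlap in the deposited table. The zero points of the sources differ.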

How the data were processed

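Signals are fluorescence intensities that the authors deposited as 1 scanner file per array, from version 10.7.1.1 of Agilent Feature Extraction, per the submitters' processing notes. Per the file headers they are background-subtracted, detrended within the array and not normalized between arrays. The deposited files also hold 0 or 1 marks, another kind of value, for spots well above background or outlying. The authors' deposited table of values is read as log2 from its values. Each of its columns has a median of 5.87, and the sources used here do not say how it was made.

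From 62850 spots per array, control and outlier spots were left out, and log2 intensities were averaged per probe (40351 probes). Each array's 75th percentile was subtracted, and 28976 probes well above background on at least 4 arrays were tested. Scan day was fitted with group as covariate over 9 arrays in R 4.3.3 with limma 3.58.1, with Benjamini-Hochberg adjustment over all tested probes and a threshold of 0.05. Tables were read with the data.table package (version 1.17.8), and Python 3.11.15 with pandas and matplotlib was used for counts and figures. The fit was tested on simulated data. Array measures were compared by exact permutation.

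Probes of 60 bases were searched against 33469 RefSeq windows of GRCr8, which run from 250 bases before to 50 after a start. A match of at least 25 bases at 1 position among these windows, in 1 gene on the same strand, was required, and 886 probes matched somewhere. Matches outside the windows were not searched, so a named probe may also bind another transcript. None matched a miRNA hairpin (0 probes, 419 hairpins searched). Named genes are up to 6 members per list and the 10 largest shifts each way among called probes without overlap. The members and lists were chosen with earlier results of these data known. The list tests planned per gene shrank to counts because few probes could be named. The number of arrays limits the precision. The limma p-values set the day difference against the spread between arrays left after day and group are fitted, which mixes rats and array handling. They do not measure how much days or slides vary.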

Additional observations from a re-analysis of the deposited data

Results flagged for a closer look

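Arrays far from the others of their scan day were looked for in 78 sets of values, the array measures and the named probes on each day, and 3 were found, where chance gives about 1 in 20 sets. The median local background of CA replicate 5 was 17, against 20 on each of the other 3 earlier arrays. The Hbb probe had 1.97 on CA replicate 1, against -0.88 to -0.37 on the other later arrays. The Atp5f1d probe had -2.92 on CA replicate 1, against -2.37 to -2.20 on the other later arrays. The day difference itself differed between CA and sham, by the interaction in limma, for 6 probes (70 over probes well above background on every array and 108 with normexp), each of which rests on sham replicate 1 as the single earlier sham array.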

How the results depend on the processing

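Of 566 values of the 25 named probes over 23 alternatives, 506 kept direction and side of the threshold, 31 lost the threshold and 5 gained it. The other 24 changed sign, and none of those passed the threshold in its new direction. The causes were not tested. In the deposited table the called probes numbered 6 higher and 3 lower at any size and also at 8-fold, and 0 oxidative phosphorylation probes were higher. None of the 25 named probes passed there, and 18 changed sign: Cox7a2 -0.031, Ndufa2 -0.10, Or10g9b 0.072, Hbb -0.97, Me3 -0.0064, Atp5f1d 0.025, Cox6b1 -0.017, Camta2 0.17, Coro2b 0.12, Adra1b -0.33, Clybl -0.24, Tcta -0.081, Tnni3k -0.10, Cacna1c -0.063, Scai 0.014, Myl6bl1 0.0062, Pcp4 0.52 and Extl1 0.013. With no scaling, 2283 probes were higher and 16682 lower, 484 and 3687 at 8-fold, 2 oxidative phosphorylation probes were higher, and Cox6b1 (-0.064) and Adra1b (-0.76) changed sign. Normexp background correction gave 14451 higher probes and 407 and 400 at 8-fold, with Atp5f1d at 0.39. Probes detected on all arrays gave 3455 lower and 690 and 209 at 8-fold. All probes gave 13636 higher, signals held at the detection limit 872 lower at 8-fold with Atp5f1d at 0.011, and the CA arrays alone 4477 higher and 4002 lower. Adra1b changed sign with array weights (-0.42) and, with 1 array left out (-0.13 to 1.05), without CA replicate 3. Of all calls, 50.6% were higher in the scaled values, 71% with normexp, 64.1% at the detection limit and 65.4% over all probes, and the median over probes moved to 0.38, 0.32 and 0.48. The interaction called 70 probes detected on all arrays, 108 with normexp and 29 without CA replicate 3.

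With any 1 array left out, the higher probes numbered 6401 to 8873 and the lower ones 6066 to 9874, with 1085 to 1203 and 1499 to 1871 at 8-fold, the highest counts without CA replicate 3 for both counts at any size. The share of signal in the 100 brightest probes was higher by 5.59 to 9.90 percentage points on the earlier day, with an exact permutation p of 0.0571 without CA 1, CA 2, sham 2 or sham 4. The labels number CA and sham replicates alike. With the replicate block, 5523 probes were higher and 5412 lower on 2 residual degrees of freedom. Residuals of same-numbered arrays correlated at 0.638, -0.0725, 0.278 and -0.0334, and 4 of 8 arrays correlated best with their own number. Sham 1 is the only earlier sham array, so the fit of day and group ties its residuals to those of CA 1 and CA 2. These correlations therefore cannot show whether same-numbered arrays are pairs.

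Limits: the earlier day holds 1 sham array, dim probes have only bounds on the earlier arrays, and few probes have a gene name.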

Other observations

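Probes that share sequence were compared with each other. Such probes can bind the same RNA on the same arrays, so a shared direction is no independent support for the day difference. Over all tested probes, 52.9% were called. Of 213 pairs of tested probes that share a run of at least 40 bases, both members were called in 95, the same way in all 95 and in opposite directions in 0. In another 34 pairs 1 member was called. The median absolute gap between the differences of a pair was 0.20 log2. Looked at as 2 probes of 1 gene, those of Abcb1b were not called and had differences of -0.86 and 0.97.

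Base composition had equal medians between the sets but shifted quartiles. The median GC content was 45% over all tested probes, over those called higher and over those called lower. Quartiles were 40% and 48.3% over all tested probes, 41.7% and 50% for higher and 38.3% and 45% for lower probes.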
